A study of Homo sapiens with 6 samples.

Results

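The 39 human HOX genes were taken from the 20532 genes of a count table by their names, HOXA, HOXB, HOXC or HOXD followed by a number. They comprise 11 genes of the HOXA cluster, 10 of HOXB, 9 of HOXC and 9 of HOXD. RNA enriched for mRNA came from ACHN, an established human renal carcinoma line that the labels assign to clear cell renal cell carcinoma. All cells carried a lentiviral short hairpin RNA, either a negative control (shCtrl, 3 libraries) or one against DNAJC2 (shDNAJC2, 3 libraries). The sources used here do not give the number of hairpin sequences, or whether the lines were clones or separate transductions. The p-values therefore reflect only how far these libraries differ from each other, which may be technical.

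HOX genes encode homeodomain transcription factors that give cells of the embryo their position along the head-to-tail axis. In each cluster low paralog numbers lie at the 3′ end and act toward the head, and high numbers lie at the 5′ end and act toward the tail, in the limbs and in the urogenital tract. Polycomb complexes keep the clusters silent outside their domain, MLL (trithorax) complexes keep them active, and retinoic acid switches on the 3′ genes first. HOX proteins bind DNA together with TALE homeodomain cofactors of the PBX, MEIS and PKNOX families. In the mouse, the paralogs numbered 11 are required for the metanephric kidney to form. DNAJC2, a ribosome-associated co-chaperone also called ZRF1, is known as well for binding ubiquitinated histone H2A and displacing Polycomb complexes from chromatin.

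In these cells HOXB2 to HOXB7 and HOXA2 to HOXA7 carried nearly all HOX mRNA, HOXC genes were at trace levels and HOXD genes were silent at this depth. HOXA2 to HOXA6 were lower in 4 libraries than in the other 2, whereas HOXA7, HOXA9 and HOXB4 to HOXB7 were closer to level. The low libraries were all 3 knockdown libraries and shCtrl 3, which held 28.0% to 41.2% of the mean of shCtrl 1 and 2 for HOXA2 to HOXA6. HOXB8, with 128 counts in all, was also lower in these 4 libraries. For HOXB8 shCtrl 3 held 47.0% of that mean, and for HOXB3 it held 69.6%. No HOX gene passed the test of knockdown against control over all 6 libraries. Without shCtrl 3, a choice made after values of these data had been seen, 17% of all genes tested fell and 17.8% rose. Genes including HOXA2 to HOXA6, HOXB2, HOXB3 and HOXB8 fell in that fit. HOXB9 rose, on few counts and with its highest library, shCtrl 3, left out. HOXA2 to HOXA6 fell to 32.4% to 42.6% of control, and leaving out a control that was low for them enlarges this fall.

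Total counts ranged from 17491462 to 25760291 per library, and HOX genes took 0.0259% to 0.0446% of them. DNAJC2 itself gave 76.7, 69.8 and 86.5 CPM (read counts scaled to a common library size by edgeR's TMM method) for shCtrl 1, 2 and 3 and 51.2, 50.4 and 38.5 CPM for shDNAJC2 1, 2 and 3. The groups did not overlap, and the knockdown level was 60.1% of control (log2 fold change −0.74, standard error 0.15, adjusted p = 0.43 in edgeR's quasi-likelihood test). The library shCtrl 3 thus had a control level of DNAJC2, and over all 13988 genes tested it lay nearer to the knockdown mean than to the mean of shCtrl 1 and 2 for 74.6%. Results are therefore given with and without it. Of the markers of renal tubule and epithelium, CDH1, CDH16 and UMOD were at 0 counts in every library, LRP2 had at most 1 count in a library, and PAX8 was at 2.82 to 4.64 CPM. The keratin gene KRT18 was at 66.5 to 89.8 CPM. Of the 12 such markers listed 7 were tested, and the 12 together summed to 157 to 243 CPM with shCtrl and 141 to 149 CPM with shDNAJC2.

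Promoters of 4 HOXA genes are shown because their values differed: HOXA4 and HOXA6 were lower in the 4 low libraries, HOXA7 little and HOXA9 not. This difference between the genes was not tested. Each is taken from the 250 bases before a RefSeq transcription start (GRCh38.p14), read 5′ to 3′ on the minus strand of chromosome 7. The 42 bases nearest the start of HOXA4 and the 79 nearest that of HOXA7 are left out, since GENCODE 29 places exons of longer transcripts there. Capitals mark matches to CCAAT on either strand or to TATAAA.
HOXA4: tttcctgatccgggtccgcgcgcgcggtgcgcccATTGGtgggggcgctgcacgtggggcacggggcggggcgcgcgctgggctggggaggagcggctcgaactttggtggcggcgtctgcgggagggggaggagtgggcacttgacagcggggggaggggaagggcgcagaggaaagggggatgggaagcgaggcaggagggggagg
HOXA6: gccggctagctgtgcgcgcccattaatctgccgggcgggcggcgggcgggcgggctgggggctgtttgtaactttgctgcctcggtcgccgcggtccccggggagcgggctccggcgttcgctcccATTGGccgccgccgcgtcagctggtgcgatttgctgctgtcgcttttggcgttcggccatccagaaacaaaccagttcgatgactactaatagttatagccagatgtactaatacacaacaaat
HOXA7: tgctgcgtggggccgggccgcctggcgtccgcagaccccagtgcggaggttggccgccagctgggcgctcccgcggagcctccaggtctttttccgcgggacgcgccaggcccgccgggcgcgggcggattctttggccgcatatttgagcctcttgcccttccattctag
HOXA9: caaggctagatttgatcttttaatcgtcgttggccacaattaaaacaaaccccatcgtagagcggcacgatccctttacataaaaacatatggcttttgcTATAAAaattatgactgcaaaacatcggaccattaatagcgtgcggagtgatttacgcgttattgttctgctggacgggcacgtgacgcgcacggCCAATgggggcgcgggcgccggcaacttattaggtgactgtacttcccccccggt
The stretches lie at chr7:27130800-27131007, chr7:27147775-27148024, chr7:27156755-27156925 and chr7:27165538-27165787. Over the full windows a CCAAT word stood once in each of the 4 genes (in HOXA7 among the bases not shown). It stood in 66.7% of the 27 windows found for HOX genes and in 32.0% of the 35114 promoter windows of the same length. TATAAA stood in HOXA9 only among the 4, in 18.5% of the HOX windows and in 10.7% of all windows. The word TGATNNAT, known as a joint site of PBX and HOX proteins, was in none of the 4. It was in 11.1% of the HOX windows and in 6.47% of all windows. AGGTCA, the core word of retinoid receptor sites, was in none of the 27 windows of HOX genes and in 12.1% of all. Those 27 windows cover only 20 of the 39 HOX genes, with 16 windows in HOXA, 1 in HOXB, 2 in HOXC and 8 in HOXD. The HOXB window is that of HOXB1, and HOXA5 has none, so most of the highly expressed HOX genes were not searched. Words were searched on both strands, and no word contains another. HOXA4, HOXA6 and HOXA7 held 26, 27 and 28 CG dinucleotides and HOXA9 20. The median was 19 over the HOXA windows and 11 over all windows.

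The HOXB cluster (chromosome 17, 48528526 to 48729178 on GRCh38) had the highest levels. Summed over its 10 genes it reached 323, 308 and 280 CPM across shCtrl 1, 2 and 3 and 233, 249 and 284 CPM across shDNAJC2 1, 2 and 3. The groups overlapped, since shDNAJC2 3 lay above shCtrl 3. Levels of different genes were compared per kilobase of the longest protein-coding transcript (RPKM, mean of 6 libraries). HOXB2, a hindbrain patterning gene, led with 39.2 RPKM, followed by HOXB6 with 32.2 and HOXB3 with 19.5. With all annotated exons as the length HOXB3 was at 11.0 RPKM and ranked 6. HOXB7 and HOXB5 followed at 13.9 and 13.8 RPKM and did not differ beyond their spread, and HOXB4, known for expanding blood stem cells, was at 6.44 RPKM. Beyond HOXB7 the level dropped to 0.497 RPKM for HOXB8 and 0.292 for HOXB9, and HOXB1 and the prostate gene HOXB13 had 2 and 0 counts in all libraries together.

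The HOXA cluster (chromosome 7) was lower and more uneven between libraries. Its summed level in CPM was 89.2 for shCtrl 1 and 92.4 for shCtrl 2 but 33.9 for shCtrl 3, and it was 34.0, 32.6 and 45.4 with shDNAJC2. HOXA5, a gene of lung and trunk development, had the highest level per length, 11.7 RPKM. HOXA7, HOXA4, HOXA3 and HOXA2 followed at 4.03, 3.45, 3.24 and 2.62 RPKM, and HOXA6 was at 1.79 RPKM. The order of these differed between the groups: the shCtrl means were 4.59 RPKM for HOXA3, 4.46 for HOXA4 and 4.26 for HOXA7, and the shDNAJC2 means were 1.89, 2.45 and 3.81 RPKM. At the 5′ end HOXA9, a gene often raised in leukaemia, was at 0.536 RPKM, while HOXA10 and HOXA11 had 43 and 32 counts in all and HOXA13 had 1. HOXA11 is one of the paralogs needed for the kidney in the mouse, and it was at 0.11 to 0.46 CPM.

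**Figure D1:**
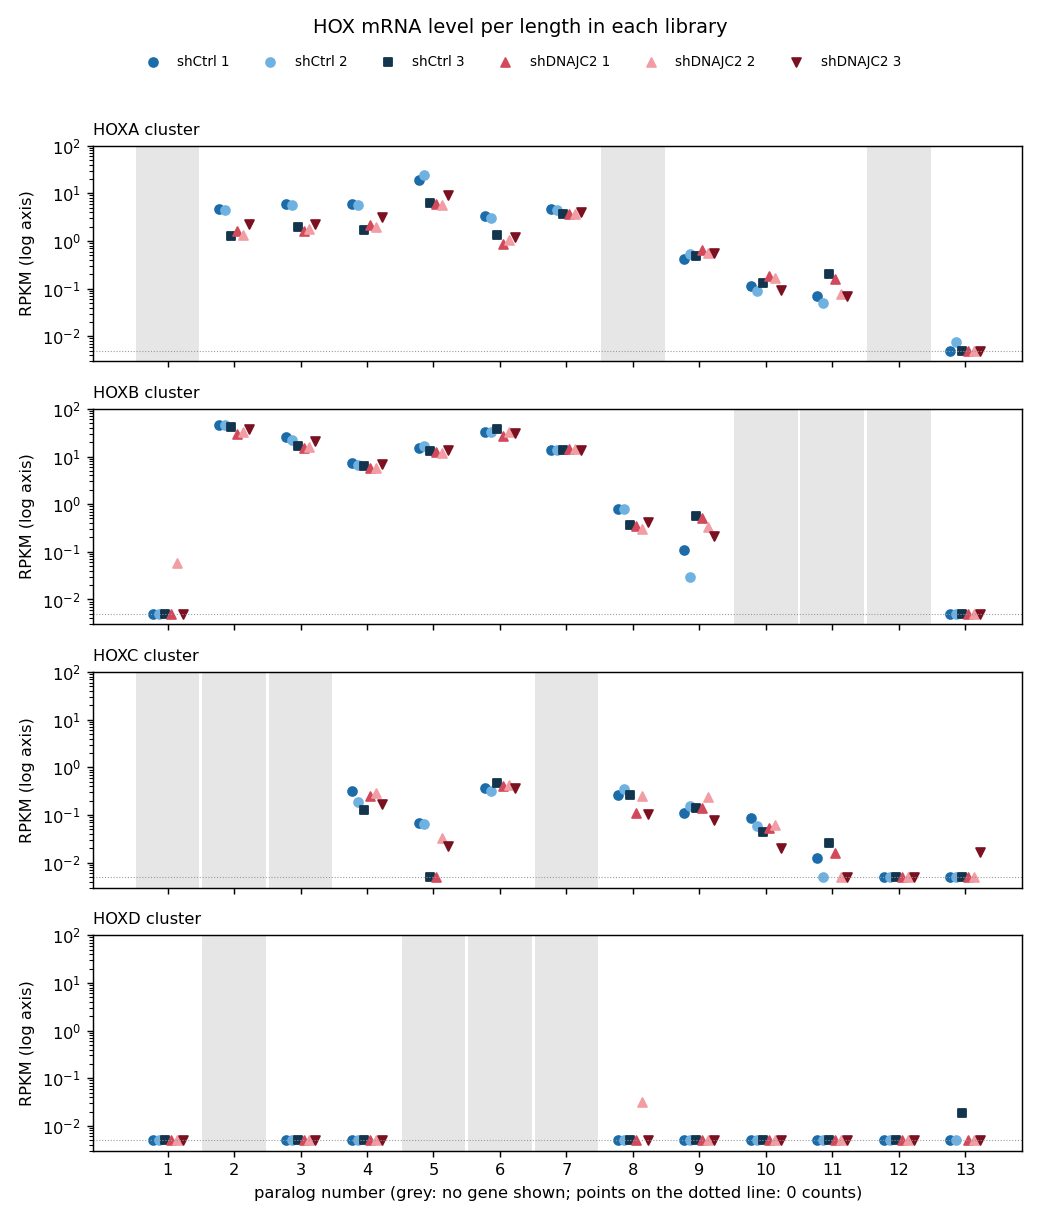
Level per length (RPKM, log axis) of HOX genes against paralog number, in 1 panel per cluster, with 1 point per library. Grey marks paralog numbers with no gene shown and the dotted line holds values of 0 counts. The levels drawn above 1 RPKM belong to HOXA2 to HOXA7 and HOXB2 to HOXB7, and the HOXD panel lies on the dotted line but for 2 points.

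In the HOXC cluster (chromosome 12, 53938765 to 54056030) all 9 genes together had 317 counts in the 6 libraries, a summed level of 1.79 to 2.75 CPM. HOXC6 had 155 of these counts, HOXC8 58 and HOXC4 49. HOXC5, HOXC9 and HOXC10 had 8, 28 and 14 counts, HOXC11 and HOXC13 had 4 and 1, and HOXC12 had 0. The 9 HOXD genes (chromosome 2, 176092891 to 176190907) had 2 counts in all, 1 of HOXD8 and 1 of the digit gene HOXD13, and 7 HOXD genes had 0. Given counting error, a gene observed at 0 counts may have a true mean of up to 3 counts (0.115 to 0.179 CPM across the libraries). Of the other paralogs numbered 11, HOXC11 had at most 2 counts in a library and HOXD11 had 0.

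Of the 39 genes, 18 passed the low-count filter and were tested, 8 each of HOXA and HOXB and 2 of HOXC, and 15 reached 1 CPM in at least 3 libraries. The filter favours genes that are high in either group, so the 18 do not stand for all 39. The authors' counting was not described by strand. Of the 18, 11 share annotated exons with a gene on the opposite strand: HOXA7 shares 62.5% of its exon bases and HOXA6 39.3% with the antisense RNA gene HOXA-AS3. HOXB6, HOXA4 and HOXA9 share 16.3%, 14.5% and 13.9% with HOXB-AS3, HOXA-AS2 and HOXA10-AS. If strand was not used, reads of such pairs cannot be told apart. On the same strand HOXB3 shares 5.81% of its exon bases with HOXB6, and these make up 16.6% of those of HOXB6. HOXA4 shares 31.0% with AC004080.6, a gene on the same strand that has no row in the counts.

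The first comparison asks whether HOX mRNA differed between DNAJC2 knockdown and control. HOXA5 was at 32.0, 39.3 and 10.2 CPM with shCtrl (libraries 1, 2 and 3 in this order here and below) and at 10.02, 9.51 and 15.3 CPM with shDNAJC2. The controls shCtrl 1 and 2 stood at least 2-fold above every other library, and shCtrl 3 lay inside the knockdown range. Means of 27.2 ± 15.1 and 11.6 ± 3.19 CPM (SD, n = 3 each) gave a log2 fold change of −1.22 (95% interval −2.36 to −0.09). HOXA3, which patterns the thymus and parathyroid, was at 20.7, 19.4 and 6.69 CPM with shCtrl and at 5.53, 5.98 and 7.76 CPM with shDNAJC2. Here too shCtrl 3 lay inside the knockdown range, and the log2 fold change was −1.28 (−2.27 to −0.28). HOXA6 was at 3.36, 2.94 and 1.30 CPM with shCtrl and at 0.84, 1.02 and 1.19 CPM with shDNAJC2, a log2 fold change of −1.31 (−2.26 to −0.36). It was the only HOXA gene with each knockdown library below each control, by a narrow gap between shDNAJC2 3 and shCtrl 3.

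HOXA2 and HOXA4 had the same order of libraries as each other. HOXA2, which specifies the second branchial arch, was at 8.53, 8.21 and 2.34 CPM with shCtrl and 2.87, 2.39 and 4.14 CPM with shDNAJC2. HOXA4 was at 10.6, 9.78 and 2.97 CPM with shCtrl and 3.76, 3.47 and 5.61 CPM with shDNAJC2. In both genes shCtrl 1 and 2 were the highest libraries and shDNAJC2 3 came next, above shCtrl 3. Their log2 fold changes were −1.01 (−2.19 to 0.16) and −0.86 (−1.99 to 0.27).

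The libraries differed less for HOXA7 and HOXA9. HOXA7 was at 9.63, 8.90 and 7.28 CPM with shCtrl and 7.46, 7.54 and 8.04 CPM with shDNAJC2, a log2 fold change of −0.16 (−0.55 to 0.22). HOXA9 was at 0.861, 1.11 and 1.004 CPM with shCtrl and at 1.36, 1.14 and 1.15 CPM with shDNAJC2, a log2 fold change of 0.29 (−0.29 to 0.88). Each knockdown library lay above each control, by a narrow gap on few reads: 19 counts in shDNAJC2 2 against 29 in the larger library shCtrl 2. As a share of the mean of shCtrl 1 and 2, shCtrl 3 held 28.0% to 41.2% for HOXA2 to HOXA6, 78.6% for HOXA7 and 102% for HOXA9. The intervals of HOXA7 and of HOXA3 to HOXA6 overlap, and the difference in response between them was not tested. HOXA7 shares 62.5% of its exon bases and HOXA6 39.3% with HOXA-AS3, so both values may include antisense reads if strand was not used.

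**Figure D2:**
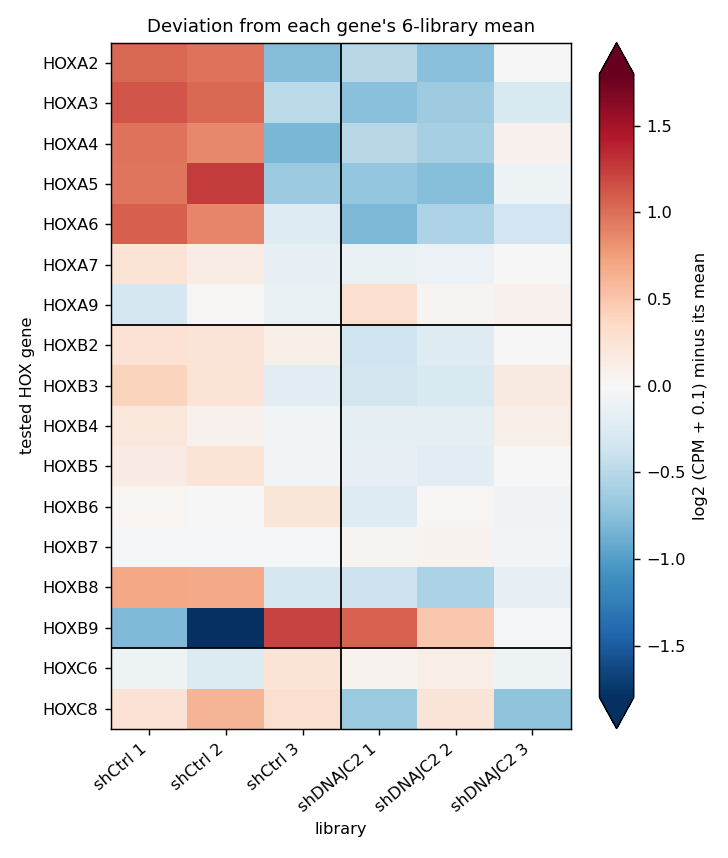
Each tile is a HOX gene in a library, coloured by its log2 (CPM + 0.1) minus that gene's mean over the 6 libraries, with clusters divided by horizontal lines and groups by the vertical line. HOXA2 to HOXA6, and HOXB8 on few counts, are high in shCtrl 1 and 2 and lower in the other 4 libraries. HOXA7 to HOXB7 are paler. HOXB9, whose value in shCtrl 2 lies beyond the colour scale, runs the other way on few counts.

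Among HOXB genes HOXB2 separated the groups. It was at 72.5, 71.0 and 65.1 CPM with shCtrl and at 47.0, 51.4 and 60.1 CPM with shDNAJC2, so that shCtrl 3 stood with the other controls. The means were 69.5 ± 3.90 and 52.8 ± 6.67 CPM (SD, n = 3 each), 76.0% of control, with a log2 fold change of −0.40 (−0.69 to −0.11). Its transcript has a GC content of 57.2%, against a median of 48.9% over all genes tested, and with each library's GC trend removed its log2 fold change was −0.26. HOXB3 was at 107, 95.7 and 70.4 CPM with shCtrl and 63.9, 66.5 and 90.3 CPM with shDNAJC2, with shDNAJC2 3 above shCtrl 3, and its log2 fold change was −0.31 (−0.78 to 0.17).

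HOXB4 to HOXB7 differed little. HOXB4 was at 23.3 to 27.7 CPM with shCtrl and 21.3 to 25.82 CPM with shDNAJC2, and HOXB5 at 27.1 to 33.3 and 24.5 to 27.9 CPM. HOXB6 was highest in shCtrl 3, at 73.0 CPM; shCtrl 1 and 2 gave 64.4 and 63.0 CPM, and the shDNAJC2 libraries 53.6 to 63.9 CPM. HOXB7 was at 18.7 ± 0.155 CPM with shCtrl (SD, n = 3) and at 19.4 ± 0.828 CPM with shDNAJC2 (SD, n = 3), and the 95% interval of its log2 fold change, −0.21 to 0.31, was the narrowest of the 18 tested HOX genes. The log2 fold changes of HOXB4, HOXB5 and HOXB6 were −0.15, −0.24 and −0.17. HOXB8 was at 1.43, 1.41 and 0.67 CPM with shCtrl and 0.63, 0.54 and 0.76 CPM with shDNAJC2, a log2 fold change of −0.86 (−1.75 to 0.04). HOXB9 had 7, 2 and 35 counts in shCtrl 1, 2 and 3 and 25, 14 and 14 in the knockdown, so its log2 fold change of 0.56 (−1.53 to 2.65) rested on few reads.

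In the HOXC cluster HOXC6 was at 0.95 to 1.38 CPM with shCtrl and 1.07 to 1.26 CPM with shDNAJC2, with a log2 fold change of 0.05 (−0.56 to 0.67). HOXC8 was at 0.49, 0.65 and 0.50 CPM with shCtrl and 0.21, 0.48 and 0.20 CPM with shDNAJC2. Its groups did not overlap, but it had only 58 counts in all, and its log2 fold change was −0.93 (−1.95 to 0.09).

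Over all 6 libraries edgeR's quasi-likelihood test with Benjamini-Hochberg adjustment called 0 of the 18 HOX genes, as it called 0 (0%) of the 13988 genes, with a smallest adjusted p of 0.43. At an unadjusted p under 0.05, 4 of the 18 were lower (HOXA3, HOXA5, HOXA6 and HOXB2) and 0 higher, against 7.33% of all genes lower and 4% higher. DESeq2 gave an adjusted p for 8 of the genes and called 0, the smallest being 0.166 for HOXA3, where it called 0.14% of all genes lower and 0.0399% higher. The groups did not overlap for 3 genes that were lower (HOXA6, HOXB2 and HOXC8) and 1 that was higher (HOXA9), against 8.43% and 7.33% of all genes tested. With 3 libraries a group, groups that do not overlap always give a two-sided exact permutation p of 0.1, the lowest possible. That p therefore adds nothing to the lack of overlap of these 4 genes. Of the 18 log2 fold changes 14 were negative, with a median of −0.35, against 52.3% negative and a median of −0.02 over all genes. By cluster the medians were −0.93 for HOXA and −0.20 for HOXB. In each of HOXA2 to HOXA6 the highest libraries were shCtrl 1 and 2, so these counts are not separate results.

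Without shCtrl 3, which leaves 2 controls against 3 knockdown libraries, 9 HOX genes fell and 1 rose in edgeR, against 17% and 17.8% of the 14201 genes tested. That library was singled out after values of these data had been seen. HOXA3 fell to 32.4% of control, HOXA6 to 32.8% and HOXA5 to 32.9% (adjusted p = 0.00036, 0.0019 and 0.00085). HOXA2 fell to 38.2% and HOXA4 to 42.6% (adjusted p = 0.0025 and 0.0035). In HOXB, HOXB8 fell to 46.1%, HOXB3 to 73.0% and HOXB2 to 73.9% (adjusted p = 0.017, 0.045 and 0.022). The 6 of these below 50% of control compare with 5.27% of all genes. HOXB9 rose by 2.27 on the log2 scale (adjusted p = 0.020), from 7 and 2 counts in the controls kept. The control left out had 35 counts, the most of the 6 libraries, so leaving it out enlarges this rise. HOXA7 was at 83.2% of control, HOXA9 at 123%, HOXB5 at 80.7% and HOXB7 at 104%, and none of these passed. HOXC4, which was tested in that fit alone, was at 91.7%.

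**Figure D3:**
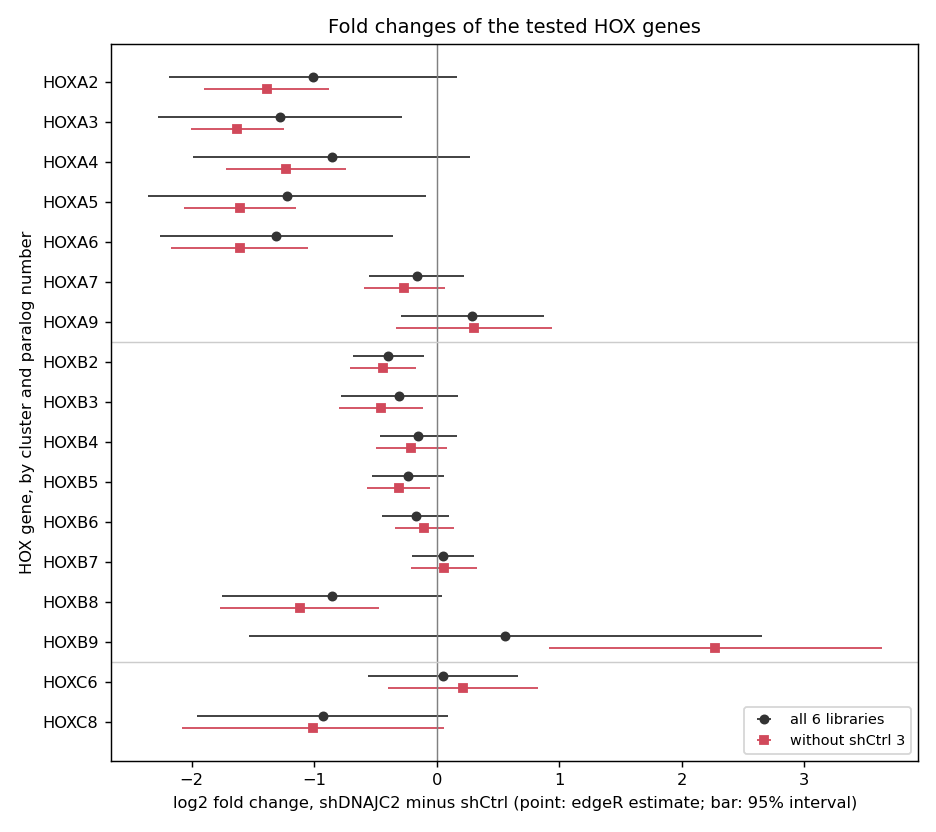
Log2 fold change of shDNAJC2 against shCtrl for HOX genes tested over all 6 libraries (black circles) and without shCtrl 3 (red squares), with 95% intervals from edgeR, in order of cluster and paralog number. HOXA2 to HOXA6 lie left of 0 in both fits, with wide intervals over all libraries, and HOXA7 and HOXB4 to HOXB7 lie within 0.4 of 0.

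Paralogs of the same number encode the most alike HOX proteins, and 7 numbers had a tested gene in both HOXA and HOXB. Per length, HOXA5 was at 127% and 145% of HOXB5 in shCtrl 1 and 2, and at 46.4% in shCtrl 3 and 49.0%, 47.9% and 67.4% in the knockdown libraries. The leading paralog of number 5 was thus HOXA5 in 2 libraries and HOXB5 in the other 4. HOXA4 was at 82.5% and 82.7% of HOXB4 in shCtrl 1 and 2, 27.5% in shCtrl 3 and 34.6% to 46.7% in the knockdown. HOXA3 was at 24.04%, 25.1% and 11.8% of HOXB3 in the controls and at 10.6% to 11.1% in the knockdown, without overlap between the groups. For numbers 2, 6 and 7 the HOXA gene was below its HOXB paralog in every library, by up to 32-fold for number 6 in shDNAJC2 1, where HOXA6 was at 3.09% of HOXB6. HOXA9 and HOXB9 were both under 2 CPM, and HOXA9 was the higher per length in every library but shCtrl 3. In a two-sided exact permutation test over libraries the ratio of HOXA3 to HOXB3 gave p = 0.1 and the other 6 pairs p = 0.2 to 0.6, and the smallest adjusted p over the 7 pairs was 0.467.

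**Figure D4:**
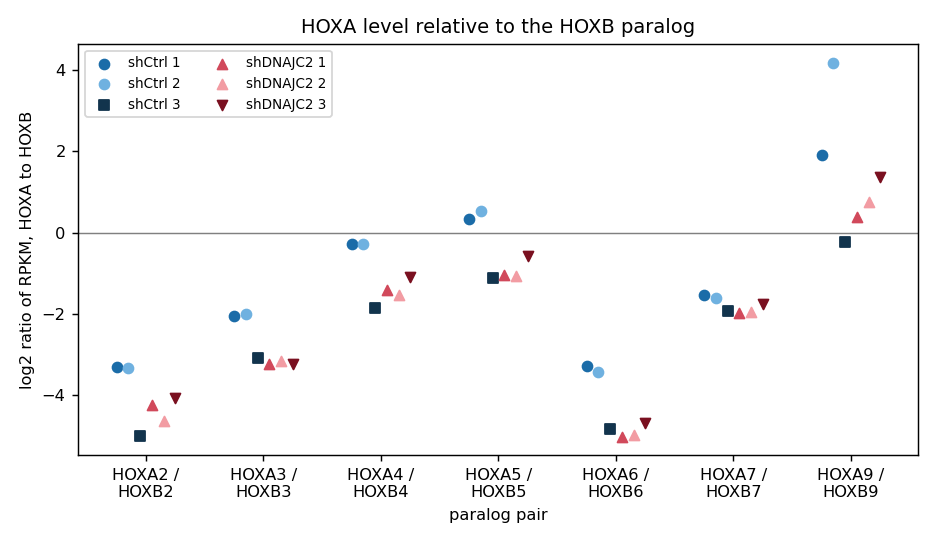
Log2 ratio of the level per length (RPKM) of each HOXA gene to its HOXB paralog, 1 point per library. The ratios for numbers 2 to 6 are highest in shCtrl 1 and 2. Among these numbers only number 5 crosses 0 between libraries, from 0.54 in shCtrl 2 to −1.11 in shCtrl 3. Number 9 crosses 0 as well, with −0.22 in shCtrl 3 and positive ratios in the other libraries.

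The TALE cofactors, all 9 of which were tested, were expressed in every library. Over all 6 libraries 0 of the 9 passed in edgeR, and 2 were lower at an unadjusted p under 0.05, against 7.33% of all genes. MEIS3 was at 19.2, 19.8 and 13.9 CPM with shCtrl and 8.51, 11.0 and 12.4 CPM with shDNAJC2, without overlap. PKNOX2 was at 4.80, 3.93 and 2.64 CPM with shCtrl and 2.66, 2.21 and 2.31 CPM with shDNAJC2, where shDNAJC2 1 lay just above shCtrl 3. MEIS2 was at 10.2 to 11.6 CPM with shCtrl and 8.28 to 9.39 CPM with shDNAJC2, also without overlap. The median log2 fold change of the 9 was −0.52. Without shCtrl 3, 6 of the 9 fell, among them MEIS3, PKNOX2, PBX2, PBX4 and MEIS1, and 0 rose, where 17% of all genes fell and 17.8% rose. MEIS1, described here after its values were seen, was highest in shCtrl 1 and 2, with shDNAJC2 3 next. MEIS1 was at 59.9, 54.7 and 19.7 CPM with shCtrl and 23.8, 22.2 and 41.1 CPM with shDNAJC2. PBX3 and PKNOX1 differed little, with log2 fold changes of 0.00 in both.

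**Figure D5:**
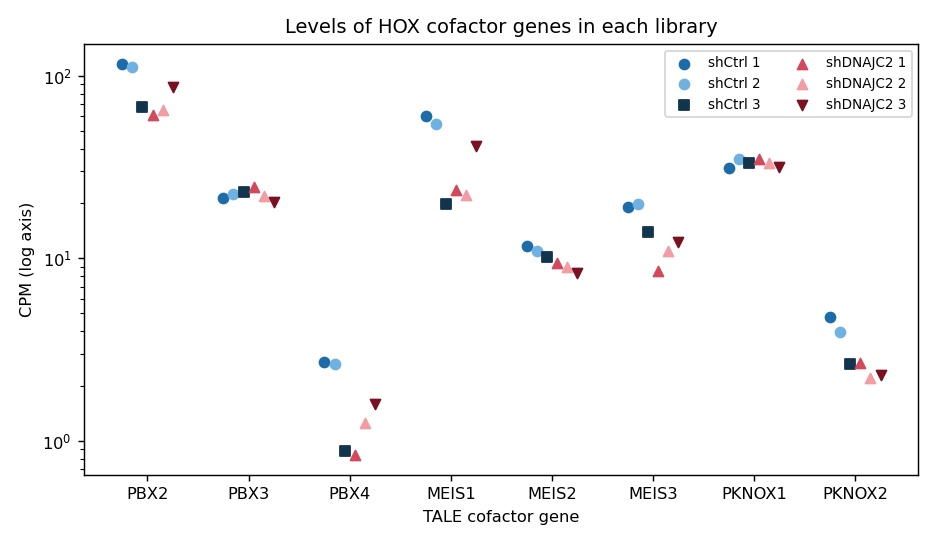
Level (CPM, log axis) of TALE cofactor genes, 1 point per library; genes differ in length, so heights compare libraries and not genes. PBX2, PBX4 and MEIS1 are highest in shCtrl 1 and 2, with shDNAJC2 3 next, while PBX3 and PKNOX1 are level.

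Of the chromatin regulators that maintain HOX expression, 0 passed over all 6 libraries in edgeR. Genes named below for passing without shCtrl 3 were picked after their values were seen, and the list counts below stand against 17.8% of all genes that rose and 17% that fell in that fit. At an unadjusted p under 0.05 over all 6 libraries the shares of all genes are 4% higher and 7.33% lower. Among 19 subunits of Polycomb repressive complex 1 (median log2 fold change 0.03), BMI1 (0.39) and PCGF5 (0.53) were higher at an unadjusted p under 0.05 and 0 were lower. RNF2, the ubiquitin ligase of the complex, was at 0.32, with each knockdown library above each control. Without shCtrl 3, 5 of the 19 rose, among them BMI1, PCGF5, RYBP and PHC2, and 0 fell, a share of risers not far from that over all genes. Among 11 subunits of Polycomb repressive complex 2 (median 0.01), SUZ12 was at 0.28, PHF19 at −0.61 and RBBP7 at 0.20, while the methyltransferase gene EZH2 was at −0.03. Without shCtrl 3, EZH1 rose and PHF19 fell. Among 18 genes of MLL complexes and their partners (median −0.01), MLLT1, a reader protein that works with DOT1L, was at 158, 172 and 170 CPM with shCtrl and 96.9, 123 and 127 CPM with shDNAJC2. For MLLT1 shCtrl 3 thus stood with the controls, and the log2 fold change was −0.53. KMT2B and RBBP5 were at −0.34 and 0.22. Without shCtrl 3, the H3K27 demethylase gene KDM6B rose and MLLT1 fell. Of 8 CTCF and cohesin genes (median 0.09), STAG2 was at 0.28, WAPL at 0.19 and SMC1A at −0.22, and without shCtrl 3 STAG2 rose and SMC1A fell.

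Signals upstream of HOX genes were partly present. Of 17 retinoid genes 11 were tested, with a median log2 fold change of −0.22. The receptor genes RARG (−0.58) and RXRA (−0.26) and the carrier gene CRABP2 (−0.30) had the smallest p, and 0 passed. RARG was at 44.5, 47.3 and 28.4 CPM with shCtrl and 24.3, 25.01 and 31.2 CPM with shDNAJC2. Without shCtrl 3, RARG, CRABP2, the retinoic acid synthesis gene ALDH1A3 and the retinol uptake receptor gene STRA6 fell and RARA rose. CDX1, CDX2 and CDX4, which switch on trunk HOX genes in the embryo, had at most 2 counts in a library. Of the 6 CDX and posterior signal genes GDF11 alone was tested. It was at 49.4, 49.9 and 26.0 CPM with shCtrl and 26.8, 26.6 and 36.2 CPM with shDNAJC2, and it fell without shCtrl 3.

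The genes flanking the clusters had log2 fold changes between −0.28 and 0.48, and 0 of the 15 tested passed over all 6 libraries. Next to HOXA, EVX1 was at 0 counts in every library. SKAP2 was at 25.5, 26.3 and 15.8 CPM with shCtrl and 16.5 to 19.8 CPM with shDNAJC2, and HIBADH and TAX1BP1 had log2 fold changes of 0.01 and 0.28. Without shCtrl 3, SKAP2 fell by 0.48 and TAX1BP1 rose by 0.33 on the log2 scale. Next to HOXB, PRAC1 and PRAC2 were at 0 counts in every library, while CALCOCO2, SNX11 and CBX1 were at log2 fold changes of 0.48, 0.20 and −0.12, and CALCOCO2 rose without shCtrl 3. Next to HOXC, CALCOCO1 was at 30.7 to 39.2 CPM with shCtrl and 26.4 to 36.9 CPM with shDNAJC2, and CBX5 fell without shCtrl 3. Next to HOXD, EVX2 was at 0 counts, but MTX2 and LNPK on either side of the cluster were at 23.4 to 36.1 and 20.8 to 34.0 CPM. The HOXD genes, with 2 counts in all, therefore lay between expressed genes. Of the flanking HOXD genes, ATP5MC3 fell without shCtrl 3.

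Of 14 genes of kidney development 7 were tested. ITGA8, an integrin of the metanephric mesenchyme, was at 30.9, 30.6 and 5.57 CPM with shCtrl and 6.68, 5.98 and 8.87 CPM with shDNAJC2, with a log2 fold change of −1.63 (−3.05 to −0.22). OSR1 and GDNF were at −0.39 and 0.43. SIX2, a target of the paralogs numbered 11 in the mouse, had at most 4 counts in a library. The median of the 7 was −0.32. Without shCtrl 3, GDNF rose and ITGA8 and SALL1 fell. Of 7 markers of mesenchymal cells 0 passed over all 6 libraries, and 3 were lower at an unadjusted p under 0.05 (PDGFRB, COL1A1 and COL1A2). Their summed level was 7236, 7427 and 5497 CPM with shCtrl and 4748, 4892 and 4577 CPM with shDNAJC2, so each control, shCtrl 3 too, lay above each knockdown library. None of the 7 was at 0, and their median log2 fold change was −0.20. Without shCtrl 3, 1 rose (CDH2) and 3 fell (PDGFRB, COL1A1 and COL1A2). COL1A1 was at 2796, 2785 and 695 CPM with shCtrl and 572, 623 and 1066 CPM with shDNAJC2, so that shCtrl 1 and 2 were highest and shDNAJC2 3 next, as for HOXA2, HOXA4 and HOXA5. The renal tubule and epithelial markers summed to 157 to 243 CPM with shCtrl and 141 to 149 CPM with shDNAJC2, with 3 of 12 at 0 throughout. Markers of blood and endothelium summed to 1.07 to 2.43 CPM and 2.04 to 4.496 CPM, and CD3E and CDH5 were at 0. The part of such cell states in the HOX values was not tested, and in bulk RNA fewer cells of a kind and less RNA per cell cannot be told apart.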

How the data were processed

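RNA was measured in 6 libraries, 3 per group. The authors deposited raw, unnormalized counts per gene, as the whole numbers and unequal library totals show. Per the submitters' processing notes the genome was GRCh38 (hg38). Aligner, counter, annotation and strandedness: not given in the sources used here. Coordinates, transcript length and GC content came from GENCODE 29, which matched 20279 of 20532 genes and all 39 HOX genes. RefSeq promoter windows were found for 20 of the 39.

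Knockdown was tested against control in edgeR 4.0.16 under R 4.3.3 (two-sided quasi-likelihood F test, TMM, filterByExpr, Benjamini-Hochberg adjustment over all genes, threshold 0.05, group as the only term). Intervals are at 95%. CPM used TMM library sizes, and RPKM divided them by the longest protein-coding transcript. Alternatives were other size factors and filters, DESeq2 1.42.0, limma-voom (limma 3.58.1), a replicate block, a GC offset, other gene lengths and leaving out each library. The code was tested on simulated counts. The members, lists and tests were chosen with earlier results of these data known. All 39 HOX genes entered the counts and sums; results of some genes are not reported here. Library values were printed for HOX genes without overlap, with p under 0.05 or an adjusted p under 0.05 without 1 library, and for the highest of a cluster. HOXA7 met none of these terms, and its library values were printed all the same, as were the shCtrl values of HOXB6. From each other list up to 3 genes of smallest p were named by rule. Further genes of those lists were named outside this rule, among them genes picked after their values were seen.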

Additional observations from a re-analysis of the deposited data

How the results depend on the processing

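No HOX gene passed under other size factors, other filters, DESeq2, limma-voom or GC correction, and 14 of the 18 tested HOX genes had a negative log2 fold change under all 15 alternatives that gave them a value. Their median was −0.35, and −0.27 with the GC trend removed. Over all genes, DESeq2 called 4 higher and 14 lower where edgeR called 0, with DNAJC2 at −0.72 (adjusted p = 0.0496). Leaving out 1 library at a time, genes called ranged from 0 to 2532 higher and 0 to 2413 lower, and HOX genes from 0 to 1 higher and 0 to 9 lower. Every call came without shCtrl 3. DNAJC2 ranged from −0.81 to −0.60 and passed, among these, without shCtrl 3 alone. HOXC6 ranged from −0.05 to 0.22 and was at −0.049 without shCtrl 2, and HOXB9 from 0.04 to 2.27. With all annotated exons as length, HOXB3 was at 11.0 RPKM in place of 19.5 and ranked 6 in place of 3, HOXB2 was at 26.2 and HOXB6 at 24.2. Genes near 1 CPM (HOXA6, HOXA9, HOXB8, HOXB9 and HOXC) are limited by depth.

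Libraries of the same replicate number did not deviate together: deviations from the group means correlated at −0.38, −0.52 and −0.66 between them. Deviations within a group sum to 0, so these values are not independent, and a smaller effect of pairing may be hidden. With the replicate block 0 genes were called, the HOX median was −0.35 and DNAJC2 was at −0.74.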
